A study of Mus musculus with 10 samples.

Results

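A stretch of mouse chromosome 14 around Pnp2 and Haus4, from 50 to 57 Mb in mm9, was examined across mouse embryonic stem (ES) cell lines with or without the DNA dioxygenases Tet1 and Tet2. Its members were the array probes whose position in the array design lies in that window, without Sall2. They numbered 377 probes for 324 genes, of 39429 probes for 31660 genes on the array. Of these, 170 probes for 148 genes gave a signal well above background in every array of 1 or more of the genotype-by-sex groups and were tested. Those 170 probes passed through the group where they were bright, so they do not stand for all 377. Among the probes left out were 36 of the 38 labelled as olfactory receptors and 9 of the 10 labelled as T-cell receptor alpha variable genes. The segment was chosen by the ratio of double knockout to wild type: the Pnp2 and Haus4 probes had the lowest ratios in it. Values and counts of that comparison are therefore given as a description and support nothing.

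The lines fell into 4 groups by genotype, all of a mixed C57BL/6 background according to the series design. WT 6 and WT 92 (male) and WT 7 and WT 94 (female) were wild type. DKO 51 and DKO 61 (male) and DKO 60 and DKO 59 (female) lacked Tet1 and Tet2. T1KO 99 and T1KO 65 (both male) lacked Tet1, and T2KO 16 (male) lacked Tet2. Each of these 11 labels is a single derived line, so every genotype was represented by 4, 2 or 1 lines, and the single T2KO line cannot separate a genotype from a line. All cells were grown with LIF on irradiated feeder cells, which were taken off by preplating before RNA was extracted. RNA was hybridised on 10 two-colour arrays. Cy5 held the DKO or T2KO line and Cy3 its WT or T1KO partner, and no dye was swapped. DKO 51 with WT 6, DKO 59 with WT 94 and T2KO 16 with T1KO 65 were hybridised on 2 arrays each, and DKO 61 with WT 92 and DKO 60 with WT 7 on 1 array each. T1KO 99 was in Cy3 on 2 arrays whose Cy5 sample has no valid genotype in the labels and entered no comparison. The male DKO pairs, the female DKO pairs and the single knockouts each lay on a slide of their own.

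The segment holds genes of unrelated function. Pnp and its neighbour and paralogue Pnp2 encode purine nucleoside phosphorylases, which split inosine and guanosine so that their bases can be salvaged. Haus4 is a subunit of augmin, the complex that recruits gamma-tubulin to existing spindle microtubules. Apex1, an endonuclease of base excision repair, Osgep, a tRNA-modifying enzyme, and Acin1, a splicing-associated protein, lie in the same window, as do clusters of secreted ribonucleases, T-cell receptor genes and granule proteases. Tet enzymes oxidise 5-methylcytosine in DNA. Mouse lines of mixed background can differ in the inherited copy of a chromosome segment, and a short oligonucleotide probe can respond to a base difference under it as well as to the amount of transcript. Neither DNA sequence nor methylation of these lines was measured on these arrays.

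The values below come from single oligonucleotides of 60 bases, so the last 30 bases of those on which the results turn are shown, 5′ to 3′ in the sense of the transcript as deposited in the array files. Capitals mark the polyadenylation hexamers AATAAA and ATTAAA, searched on this strand only.
Pnp2: cagacttttATTAAAcatttgaaccttgag
Pnp: gtctctgttcttagatcctagcagaaagga
Haus4: tgtgtaataatttcctgAATAAAgttgtag
Acin1: aaatctaaagaaaagaagagtgaaaagaaa
Mettl17: aagaaaccaaaggaggaaatattctctatg
Ccnb1ip1: cagcagggcctttaaagcaaaaagaattta
Gm10896: tcatttttactcctaggccttcacctagct
The Pnp2 probe (chr14:51584365-51584424, plus strand, mm9) holds ATTAAA, which 3.38% of all gene probes have in their last 30 bases. The Haus4 probe (chr14:55160634-55160693, minus strand) holds AATAAA, found there in 10.6% of all gene probes. The longest run of bases shared by the Pnp2 probe and the tested Pnp probe (chr14:51571344-51571403) was 6 bases. Pnp and Pnp2 are similar genes, and whether transcript of one binds the probe of the other was not measured. Mettl17 was probed across an intron (chr14:52510850-52511074), Acin1 at chr14:55262779-55262838, Ccnb1ip1 at chr14:51409489-51409548 and Gm10896 at chr14:53475331-53475390. The files do not state exon, intron or UTR for a probe.

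Levels are normalized log2 intensities, and differences between lines are on the same log2 scale. The share of gene spots clearly over background was 55.2% to 61.5% for Cy3 and 62.6% to 69.0% for Cy5, without a saturated member spot. Repeated hybridisations of the same lines differed in their log2 ratios by a median of 0.0553 to 0.0665 over the tested members. The labels gave replicates as lines or as repeat arrays, and repeat arrays were averaged so that each line or pair counted once. The number of lines limits the precision. The brightest Tet1 probe was between 12.78 and 13.12 in the WT lines and 12.91 in T2KO 16, and was 10.92 in T1KO 65, close to that in T1KO 99, and 10.52 to 11.07 for DKO. The brightest Tet2 probe was 9.74 in T2KO 16 and 9.40 to 10.12 in the DKO lines, against 11.43 to 12.05 in the others. The median of 12 ES cell markers lay between 14.87 and 15.40 in all 11 lines, against a median of 9.23 for all tested probes. The median of 18 feeder fibroblast markers lay between 12.53 and 13.53, and that of 6 measured T-cell markers between 9.73 and 10.07.

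Pnp2 was present in WT cells, near the floor of the array in DKO cells, and split the 2 Tet1 knockout lines. Its level was 11.28 in WT 6, 9.88 in WT 92, 10.67 in WT 7 and 10.18 in WT 94. It was 6.78 in DKO 51, 6.69 in DKO 61, 6.72 in DKO 60 and 6.74 in DKO 59, where the spot was well above background on 5 of 6 arrays. No DKO line came near a WT line. The log2 ratio of DKO to WT was -4.50, -3.19, -3.95 and -3.44 in the 4 pairs, with a mean of -3.77 (SE 0.225). T1KO 99 was at 10.07, within the WT range. T1KO 65 was at 6.96 and not well above background on either of its arrays. T1KO 99 was thus 8.64-fold higher than T1KO 65, counted from the signal that the undetected spot had after this background correction. This is no lower bound. The difference of T1KO 65 from T1KO 99 was -3.11 on the log2 scale, -2.59 without background correction and -0.86 with background modelled on all spots, so its size depends on that step. T2KO 16 stood at 9.33, between them and below the lowest WT line. Both T1KO lines carry the Tet1 label and low Tet1, were read in Cy3 and lay on the same slide. They were hybridised on different arrays with different Cy5 samples. The cause of their difference was not tested.

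Haus4 also had all DKO lines lowest and split the T1KO lines, at a much higher level. It was 14.98, 14.28, 14.89 and 14.23 in WT 6, WT 92, WT 7 and WT 94, and 12.91, 12.72, 12.84 and 13.33 in DKO 51, DKO 61, DKO 60 and DKO 59. All DKO lines lay below all WT lines, and the mean log2 ratio was -1.64 (SE 0.214), from -2.07 in DKO 51 to -0.90 in DKO 59. T1KO 99 was at 14.26, in the WT range, T1KO 65 at 13.37, beside the highest DKO line, and T2KO 16 at 14.64, in the WT range, where Pnp2 was not. Across the 11 lines, the Pearson correlation of Haus4 with Pnp2 was 0.950, the third highest among 25865 tested probes. This number describes the lines only, since both genes were chosen for their fall in the 4 DKO lines and all lines share 3 slides.

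Acin1 followed with smaller differences. Its brighter probe was 13.59, 13.12, 13.15 and 12.89 in the WT lines in the order given above, and 12.43, 12.38, 12.02 and 12.28 in the DKO lines. T1KO 99 at 12.88 sat beside the lowest WT line, T1KO 65 at 12.27 lay within the DKO range and T2KO 16 at 12.76 lay between the groups. A second Acin1 probe, which spans introns (chr14:55298161-55303878), had a mean DKO over WT ratio of -0.43 against -0.91 for the first. On that probe T1KO 65 and T1KO 99 were 9.35 and 9.42. The separation of the T1KO lines was therefore seen with the first probe and not with the second.

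Pnp, the close neighbour of Pnp2, had another order of lines. The WT lines ranged from 13.71 to 14.24 and the DKO lines from 12.98 to 13.15, with a mean log2 ratio of -0.85 (SE 0.106). T1KO 99 was at 13.94, inside the WT range, and T1KO 65 at 13.37, between the groups. T2KO 16 was at 13.10, inside the DKO range, where Pnp2 and Haus4 were not. Every labelled line read in Cy5 was thus below every line read in Cy3 for Pnp. The Cy5 sample without a valid genotype on the T1KO 99 arrays was at 14.43, above all labelled lines. No dye was swapped, so dye and line cannot be told apart for Pnp. The other Pnp probe (chr14:51573028-51573087) was between 6.23 and 6.58 in all lines and was not tested.

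Mettl17, a mitochondrial methyltransferase-like protein, was chosen after its values were seen. It was 9.63, 9.05, 9.22 and 9.14 in the WT lines, 8.58 to 8.96 in the DKO lines and 9.25 in T1KO 99. T1KO 65 was lowest of all 11 lines at 8.21. This line thus lay beyond the DKO lines, not among them. T2KO 16 was at 8.83, inside the DKO range.

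**Figure D1:**
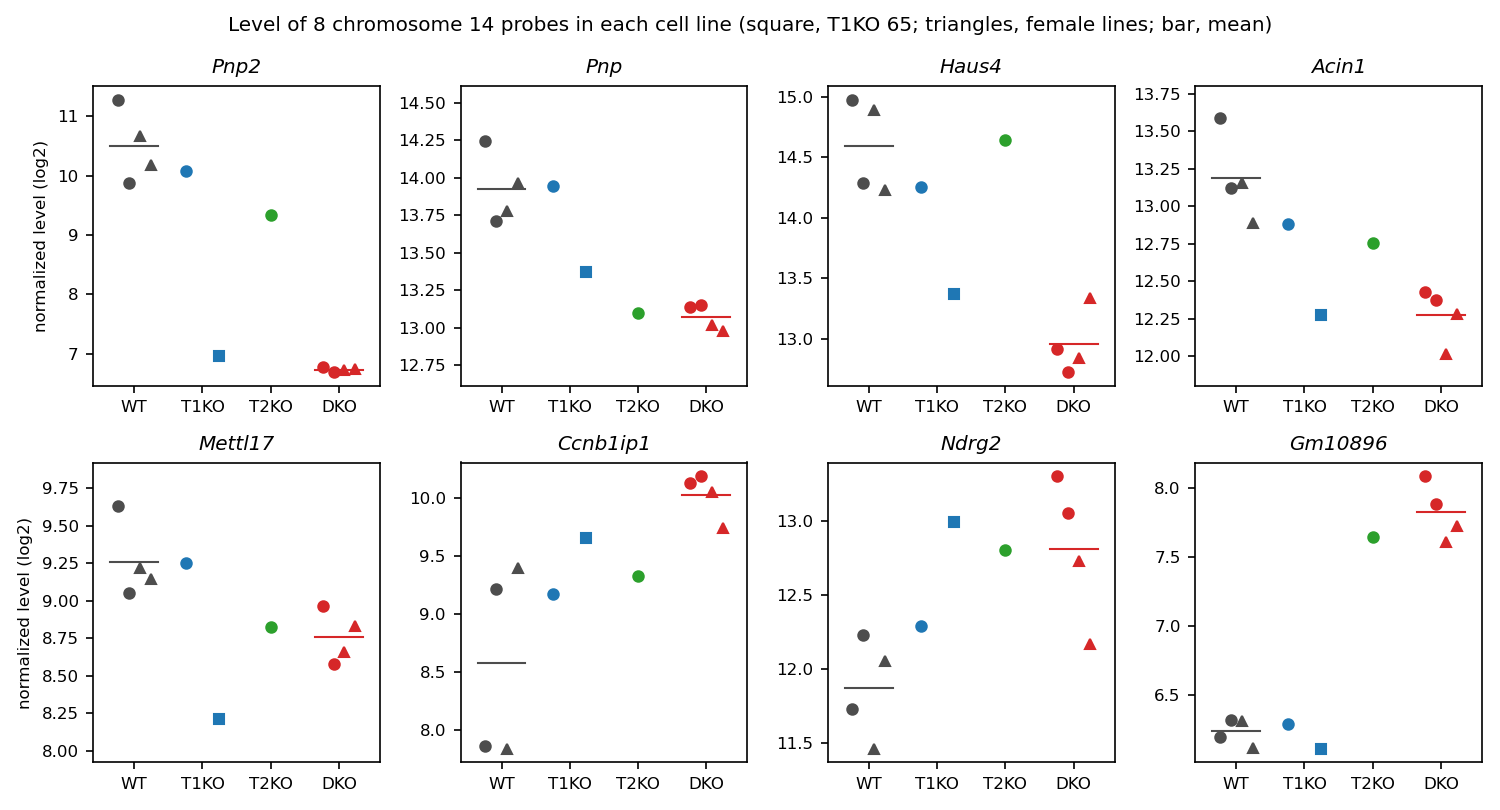
Each panel plots the normalized log2 level of 1 probe in each of the 11 lines by genotype, with circles for male lines, triangles for female lines, a square for T1KO 65 and a bar at the mean of the 4 WT or 4 DKO lines. The panels have their own vertical ranges; T1KO 65 lies with the DKO lines for Pnp2 (6.96) and near them for Haus4 (13.37), whereas T1KO 99 lies near the WT lines (10.07 and 14.26).

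Among the members that were higher in DKO lines, Ccnb1ip1, a ubiquitin ligase of meiotic crossing over, divided the WT lines. It was 7.86 in WT 6 and 7.84 in WT 7, but 9.21 in WT 92 and 9.39 in WT 94, a range of 1.56 that was the widest among the tested members. The DKO lines lay between 9.74 and 10.19, just above the higher pair of WT lines, and T1KO 99 was at 9.17. The mean DKO over WT ratio of 1.45 (SE 0.362) thus combined 2.27 and 2.21 in the pairs with WT 6 and WT 7 with 0.97 and 0.34 in the others. On 1 array of T2KO 16 and T1KO 65 this spot lay below its own local background, at 787 against 1010 in Cy3 and 878 against 1447 in Cy5. It was left out there, so the levels of 9.66 for T1KO 65 and 9.33 for T2KO 16 rest on 1 array each. With that spot kept, T1KO 65 minus T1KO 99 was -1.46 and not 0.49. Without background correction, which also keeps the spot, it was 0.53.

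The 4 WT lines also fell into the same pairs in other genes. WT 6 and WT 7 were above WT 92 and WT 94 for Pnp2 and Haus4 and below them for Ccnb1ip1. The median of the feeder fibroblast markers was 12.66 and 12.53 in WT 6 and WT 7 and 13.53 and 13.26 in WT 92 and WT 94. It was 12.73 to 13.28 in the DKO lines, 13.14 in T1KO 99, 12.93 in T1KO 65 and 12.65 in T2KO 16. Their part in the WT differences was not tested. Fewer cells of a type and less RNA per cell cannot be told apart in such bulk samples.

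Ndrg2, a stress-responsive gene of the alpha/beta hydrolase fold, was chosen after its values were seen and had a ratio of 0.94 that did not separate the groups. WT levels ran from 11.46 to 12.23 and DKO levels from 12.17 to 13.30. T1KO 99 was at 12.29 and T1KO 65 at 12.99, a difference of 0.70 that was the largest rise of T1KO 65 over T1KO 99 in the segment. Gm10896, which lies among the T-cell receptor alpha genes, was 6.11 to 6.32 in all 6 lines read in Cy3 and not well above background in any of them. It was 7.61 to 8.08 in the DKO lines and 7.65 in T2KO 16. It was thus at least 2.19-fold higher in DKO than in WT lines, but high in every line read in Cy5 whatever its genotype, and 7.88 in the Cy5 sample without a valid genotype. Over the array, all Cy5 lines lay above all Cy3 lines for 2.82% of tested probes and below them for 1.48%, against 4 and 9 of the 170 members. Gm10896 was among the 4 and Pnp among the 9.

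The DKO over WT contrast as a whole called 10 members lower and 1 higher at a limma adjusted p under 0.05, where 1.55% of all tested probes were lower and 2.45% higher. These counts include the values that chose the segment. The 10 were Pnp2, Pnp, Haus4, Acin1, Apex1, Pip4p1, Osgep, Ttc5, Mettl17 and Ngdn, and the 1 higher was Gm10896. Without any 1 of the 4 pairs no member passed. Ratios under -1 were found for 2 members (0.213% of tested probes) and over 1 for 2 (0.51%). All DKO lines lay below all WT lines for 21 members of 19 genes (5.91% of tested probes) and above them for 10 (7.39%). At 9 of the 21, all Cy5 lines lay below all Cy3 lines (1.48% of tested probes). At 4 of the 10, they lay above them (2.82%). Dye and line cannot be told apart at these probes. The median ratio of all 170 members was -0.02, beside 0.02 for all tested probes. The ratios of 156 of the 170 members were within 0.5 of 0.

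The values that chose the segment were also laid out by position, as a description. Of the 21 probes with all DKO lines below all WT lines, 7 lay between 51 and 52 Mb, among 20 tested, and 10 between 55 and 56 Mb, among 37 tested. The other 5 intervals of 1 Mb held 0 to 2 each, with Mettl17 between 52 and 53 Mb. Gm10896, higher in DKO, lay between 53 and 54 Mb. The 70 tested probes in the 7 Mb before the segment included 7 such probes, and the 98 in the 7 Mb after it included 4. On all of chromosome 14 outside the segment, both flanks included, there were 44 among 777 (5.66%). The probe just outside the first edge, Naa30, had a ratio of 0.67, and the one just inside, Armh4, had -0.01. At the second edge Gm6115, inside, had 0.04 and Atp12a, outside, had -0.09.

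Neighbours of Pnp2 on one side all shared its direction in DKO lines, and those on the other side were mixed. On the side of smaller coordinates, Pnp, Pip4p1, a phosphoinositide phosphatase, and Apex1 had ratios of -0.85, -0.48 and -0.48. On the other side, a transcript listed as NAP112768-1, Rnase10, a secreted ribonuclease of the epididymis, and Ang, the ribonuclease angiogenin, had -0.09, 0.09 and -0.20. All DKO lines lay below all WT lines for Pnp, Pip4p1 and Apex1, and for Ang on the other side. Among the 6 neighbours, none approached the -3.77 of Pnp2. Of these 6, Pnp and Apex1 were lower in T1KO 65 than in T1KO 99, with differences of -0.57 and -0.39, while Pip4p1 differed by 0.01. Around Haus4, no neighbour had a ratio near that of Haus4. Prmt5, an arginine methyltransferase, Rem2, a GTPase, and Lrp10, a lipoprotein receptor relative, had -0.14, -0.22 and 0.21. Ajuba, an adaptor of cell contacts, 4931414P19Rik and the proteasome subunit Psmb5 had 0.28, 0.08 and, on its brighter probe, 0.11. The level of Ajuba, 26.2 kb from the Haus4 probe, was higher in all DKO lines than in all WT lines.

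**Figure D2:**
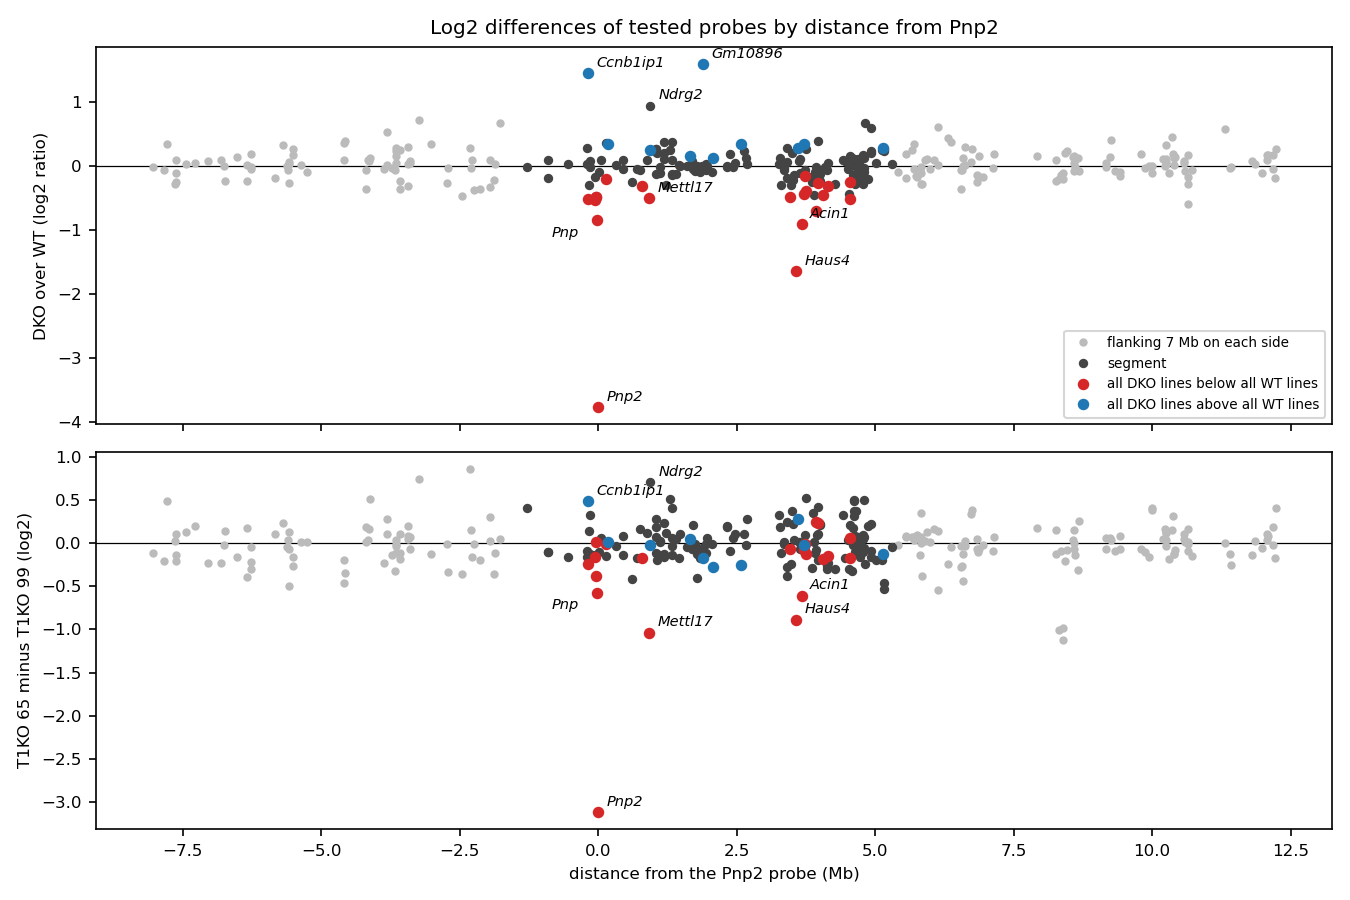
Each point is 1 tested probe, placed by its distance from the Pnp2 probe in Mb, with the DKO over WT log2 ratio above and the difference of T1KO 65 from T1KO 99 below. Red points have all DKO lines below all WT lines and blue points the reverse; Pnp2 (-3.77) and Haus4 (-1.64) stand apart from close neighbours in both panels.

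Probes of the same gene were compared where more than 1 was tested. In 22 genes with 2 or more tested probes, the ratios of DKO to WT spanned a median of 0.20, never over 1, and over 0.5 in 2 genes. Ttc5, a p300 cofactor, had -0.51 on one probe and 0.03 on the brighter one. Tox4, a chromatin-associated protein, had -0.14 and 0.37. Osgep had -0.53 on its dimmer probe and -0.17 on its brighter one. The calls of Osgep, Ttc5 and Acin1 each rest on 1 of 2 tested probes. Pnp2, Pnp, Haus4, Apex1, Mettl17, Ngdn and Pip4p1 had 1 tested probe each. A second probe that could tell a transcript change from a change under the probe was not used for them.

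T1KO 65 and T1KO 99 gave a comparison free of the lines that chose the segment. Both are male Tet1 knockout lines, both were read in Cy3 and both lay on the third slide, with 1 line on each side and no test. T1KO 65 was lower by over 0.5 for 6 members, where 2.46% of tested probes were, and higher by over 0.5 for 3, against 3.48%. It was lower by over 1 for 2 members, Pnp2 (-3.11) and Mettl17 (-1.04), against 0.36% of tested probes. It was higher by over 1 for none, against 0.429%. The 6 lower members were Pnp2, Pnp, Mettl17, Haus4, Acin1 and Gzme, and the 3 higher were Ndrg2, Rab2b and Cebpe. Of the 6, 5 were also among the 10 members lower in DKO, including Pnp2 and Haus4, which chose the segment. This overlap was not counted over all tested probes. The exception, the granule protease Gzme, had a DKO over WT ratio of 0.23. With background modelled on all spots, the difference for Mettl17 was -0.43. The median difference of the fibroblast markers between these lines was -0.33 and that of the ES cell markers was -0.24, beside 0.01 for all tested probes, and their part was not tested.

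**Figure D3:**
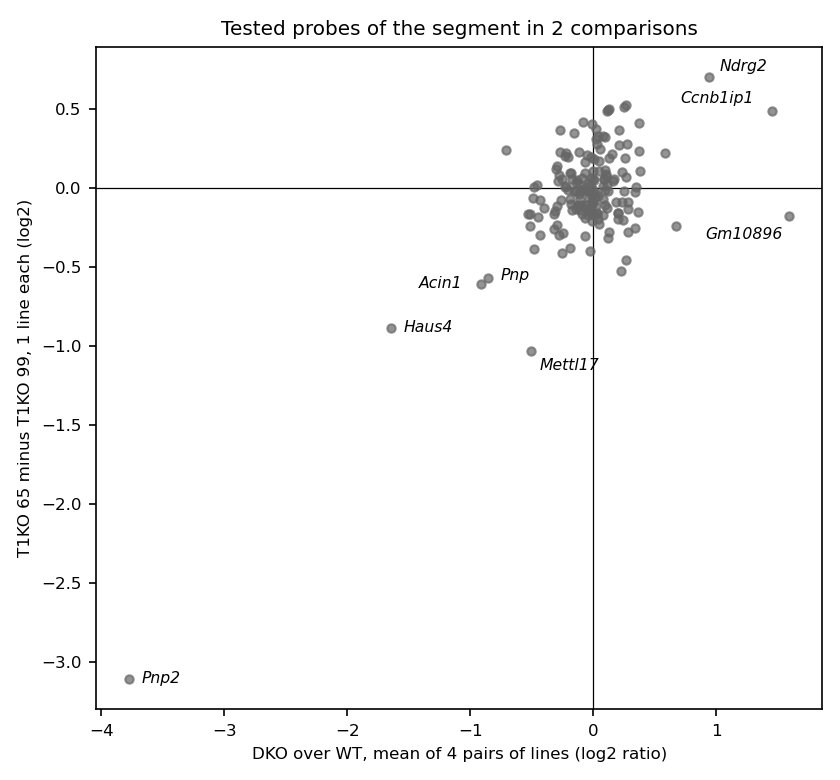
Each point is 1 of the 170 tested members, with the mean DKO over WT log2 ratio of 4 pairs on the horizontal axis and T1KO 65 minus T1KO 99, 1 line each, on the vertical axis. Pnp2 (-3.77 and -3.11), Haus4, Acin1, Pnp and Mettl17 are lower in both, and 153 of the 170 points lie within 0.5 of 0 on both axes.

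Each single-knockout line was then placed on a scale from the WT mean (0) to the DKO mean (1) at the 21 probes with DKO below WT. These probes and both ends of the scale come from the contrast that chose the segment, and Pnp2 and Haus4 are among them. The counts below are therefore a description and support nothing. T1KO 65 was nearer the DKO mean at 13 of the 21, where 37% of all such probes of the array were. T1KO 99 was nearer the DKO mean at 1 of the 21, against 30.2% of such probes, and T2KO 16 at 7, against 40.2%. The 1 probe for T1KO 99, listed as BY231855, was lower in all single knockouts, at 7.90 to 7.92, than in the DKO lines, at 8.22 to 8.36. Counted instead as below the lowest WT line, T2KO 16 was so at 16 of the 21, T1KO 65 at 13 and T1KO 99 at 6. The share over the array was not counted for that measure. T2KO 16 was read in Cy5 like the DKO lines, and the T1KO lines in Cy3 like the WT lines. Among the 10 members called lower, T1KO 65 was nearer the DKO mean at 9, against 36.6% of all probes called lower. T1KO 99 was so at 0, against 23.4%, and T2KO 16 at 2, against 35.1%. Pip4p1 was the exception, with T1KO 65 and T1KO 99 both at 11.24. T1KO 65 stood at 0.94 for Pnp2, 0.74 for Haus4, 0.83 for Ngdn and 2.08 for Mettl17. It stood at 1.00 for the brighter Acin1 probe and 0.95 for the dimmer Ttc5 probe. The T1KO lines fell on the same side of the midpoint at 9 of the 21 probes and on different sides at the others, Pnp2, Haus4, Acin1 and Pnp among them. This split was not counted over all such probes of the array. At Slc22a17, an organic cation transporter relative, both T1KO 65 (11.43) and T1KO 99 (11.19) were above all WT lines (10.69 to 10.99) and the DKO lines (9.91 to 10.35) were below them.

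**Figure D4:**
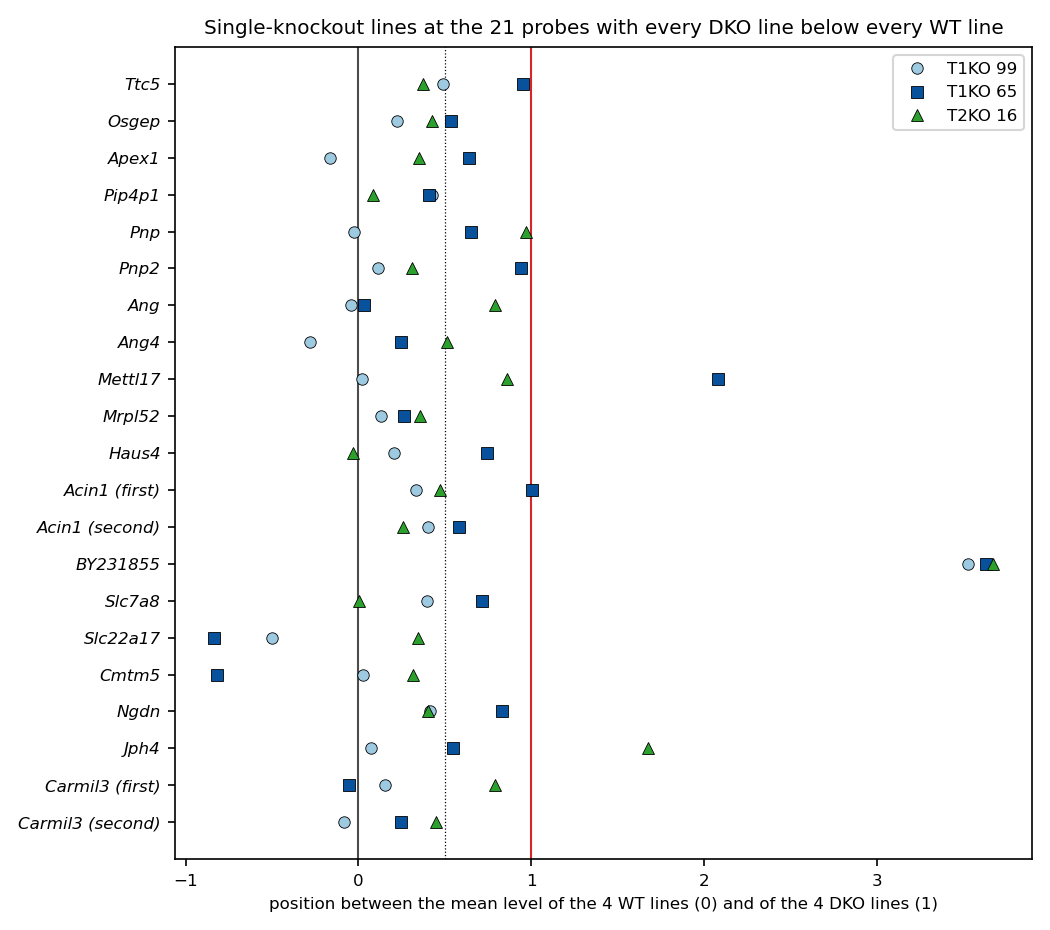
Each row is 1 of the 21 probes at which every DKO line was below every WT line, in order of position, with the place of T1KO 99, T1KO 65 and T2KO 16 between the mean of the WT lines (0) and of the DKO lines (1). T1KO 65 lies past the midpoint at 13 probes, T2KO 16 at 7 and T1KO 99 at 1.

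The ratio of T2KO 16 to T1KO 65 used no line of the DKO over WT contrast and shared T1KO 65 with the comparison above. The spread in its fit, however, came from the DKO over WT pairs, because 1 pair has no spread of its own. With limma, no member and no probe of the array passed an adjusted p of 0.05 (0% called), while 24 members had an unadjusted p under 0.05, beside 12.7% of all tested probes. The share of the members, 14.1%, was near that background. Ratios over 1 were found for 4 members (1.22% of tested probes) and under -1 for none (1.7%). Pnp2 had a ratio of 2.37 (SE 0.491, 1 pair on 2 arrays, limma adjusted p = 0.283), and 2.40 and 2.34 on the single arrays. With each array entered and a random block for the pair, its limma adjusted p was 0.0402, and that was the 1 member past the threshold in that fit. With background modelled on all spots its ratio was 0.15. Haus4 had 1.27 (SE 0.441, limma adjusted p = 0.371). The other members of smallest p were Gm10896 (1.54), the probe A_55_P1988481 (0.70), a T-cell receptor transcript listed as ENSMUST00000103650 (0.65), Nfatc4 (-0.59), Ajuba (-0.58), Lrp10 (-0.50) and Tm9sf1 (-0.48), with limma adjusted p from 0.271 to 0.310. Of these, Gm10896 and the T-cell receptor transcript were higher in every Cy5 line than in every Cy3 line.

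The T1KO lines were also set against the male WT lines WT 6 and WT 92, which are part of the contrast that chose the segment and lay on another slide. With limma, 0 members and 0% of tested probes passed an adjusted p of 0.05, and 23 members had an unadjusted p under 0.05, beside 13.4% of tested probes. The 23 became 8 without T1KO 65 and 15 without WT 6. A difference under -0.5 was found for 9 members (3.48%) and over 0.5 for 8 (3.61%). The mean difference of Pnp2 was -2.06, which averages lines at 10.07 and 6.96 and describes neither.

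Sex differences in the DKO over WT ratio were tested with the same spread. No member and 0% of all tested probes passed an adjusted p of 0.05 in limma, and 11 members, 6.47%, had an unadjusted p under 0.05, beside 5.06% of tested probes. The lowest p values belonged to 3 genes. Rec8, the meiotic cohesin subunit, had ratios of 0.36 and 0.23 in the male pairs and -1.15 and -0.51 in the female pairs (limma adjusted p = 0.834). Sdr39u1, a dehydrogenase relative, had 0.94 and 0.47 in males and -0.49 and -0.12 in females, and its second probe went the same way. Psme2, an activator subunit of the proteasome, had -0.37 and -0.20 in males and 0.73 and 0.28 in females, also on both probes. Each sex had its own slide, so sex and slide cannot be told apart. Pnp2 and Haus4 were lower in DKO in all pairs of both sexes.

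**Figure D5:**
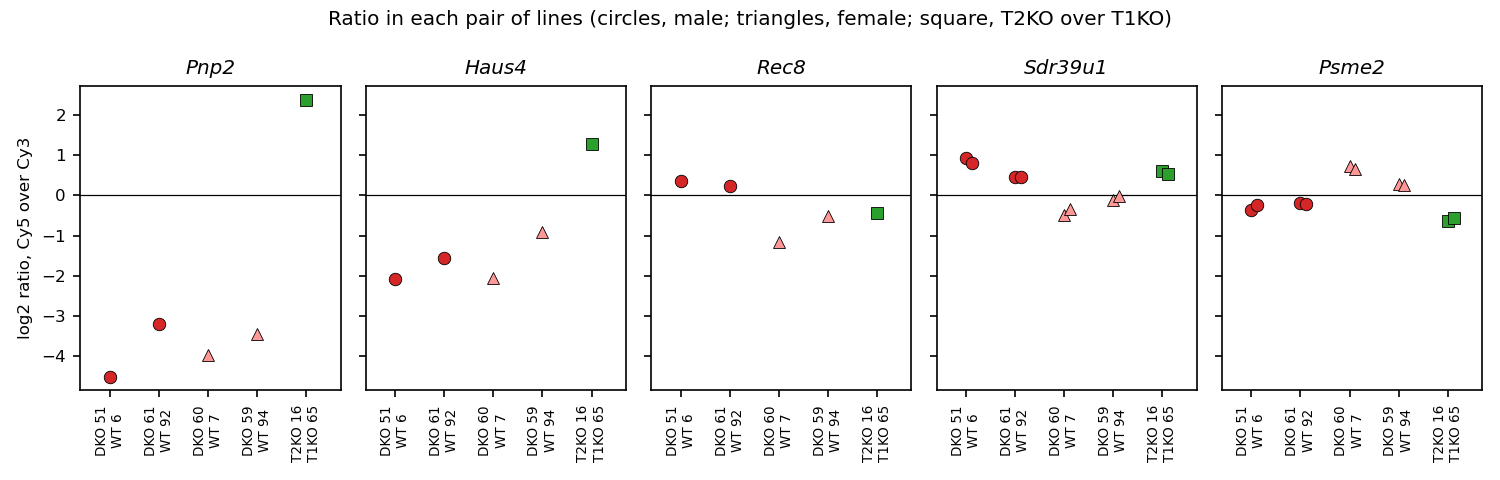
Log2 ratios of Cy5 over Cy3 in each pair of lines are plotted for 5 genes, with circles for male DKO over WT pairs, triangles for female pairs, a square for T2KO 16 over T1KO 65 and a second point where a gene has a second probe. Pnp2 and Haus4 are below 0 in all 4 DKO pairs and above 0 for T2KO 16 over T1KO 65, whereas Rec8, Sdr39u1 and Psme2 change sign between male and female pairs.

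Spread among the WT lines was examined for its own sake. A range over 1 among the 4 WT lines was found for 8 members, 4.71% beside 6.25% of tested probes. After Ccnb1ip1 (1.56) and Pnp2 (1.40) came Myh6, the cardiac alpha myosin heavy chain (1.13), LOC100046023 and the probe A_55_P2093231 (1.07). Myh6 was 9.86 and 9.95 in WT 6 and WT 7 and 10.99 and 10.53 in WT 92 and WT 94, the same pairs as for Ccnb1ip1, and 10.46 to 10.94 in the DKO lines. LOC100046023 was highest in WT 7, at 7.44, and 6.34 to 6.62 in the other WT lines.

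The remaining genes were grouped by function, with the brightest probe of each gene. Of 17 tested genes of DNA repair, RNA methylation and RNA processing, 4 were called lower in DKO and none higher. Over the array, 1.55% of tested probes were called lower and 2.45% higher. The 4 were Apex1 (-0.48), Mettl17, Acin1 and Ngdn, a nucleolar protein (-0.45). These calls come from the contrast that chose the segment and are a description. The splicing factor Hnrnpc, the poly(A)-binding protein Pabpn1 and Rpgrip1, a ciliary protein, had ratios of -0.11, -0.01 and 0.20. No member was called in the other 6 groups. Among 6 ribonucleases of the RNase A family, all at a mean level under 9.96, the brightest were Rnase4 (0.36), Ang (-0.20), Rnase10 (0.09) and Ear6 (0.09). Among 7 regulators of transcription, Chd8, a chromatin remodeller, Zfp219, Irf9 and Nfatc4 had -0.30, 0.26, -0.12 and -0.20. Among 9 genes of protein turnover, the brightest were Psmb5, Psme2 (0.11), Nedd8 (-0.07) and Psme1 (0.02). Psme1 and Psme2 had T2KO over T1KO ratios of -0.72 and -0.63. Among 22 transporters and enzymes, the brightest were Abhd4 (-0.29), Oxa1l (0.05), Slc7a7 (0.28) and Ipo4 (-0.26). Among 6 muscle and contact genes, Ajuba, Efs, Myh6 and Myh7 had 0.28, -0.19, 0.38 and -0.23. The 4 tested granule proteases, Cma2, Gzme, Mcpt8 and Ctsg, had 0.04, 0.23, 0.24 and 0.28 at levels near the floor.

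Other genes of the pathways of Pnp2 and Haus4 were mostly not called lower. The share called over all tested probes was 1.55% lower and 2.45% higher. Of 28 tested genes of purine nucleoside salvage, 2 were called lower, Pnp2 and Pnp themselves, and 2 higher, Mtap, which splits methylthioadenosine (0.65), and Nt5c2, a nucleotidase (0.55). Their median ratio was -0.07. Adk, adenosine kinase, had -0.83 (limma adjusted p = 0.114), and Hprt, which recovers the bases that Pnp releases, had 0.44 (limma adjusted p = 0.204). Of 23 genes of augmin and gamma-tubulin, 1 was called lower, Haus4, and none higher, with a median of -0.09. The other augmin subunits ranged from -0.29 in Haus8 to 0.38 in Haus7. In T1KO 65 minus T1KO 99, all augmin subunits other than Haus4 lay between -0.13 and 0.18.

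The 10 probes of the array whose levels over the 11 lines correlated most with Pnp2 were Tars, Ap5z1, Haus4, Ngdn, Chaf1b, Acin1, Nubp2, Nolc1, 1810055G02Rik and Osgep, with Pearson r from 0.929 to 0.975. Of these, 4 lay in the segment and 6 on 5 other chromosomes. The lines share slides and dyes, so r is a description of these 11 levels.

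Upstream sequence was examined for Haus4, Pnp and Mettl17, which were all lower in T1KO 65 than in T1KO 99 and lower in the DKO lines. For Pnp2 none was available. This was done because CpG sites are the substrate of the methylation that Tet enzymes act on. The 250 bases before the RefSeq start (GRCm38.p6) are shown for Haus4 and Pnp with each CG in capitals.
Haus4: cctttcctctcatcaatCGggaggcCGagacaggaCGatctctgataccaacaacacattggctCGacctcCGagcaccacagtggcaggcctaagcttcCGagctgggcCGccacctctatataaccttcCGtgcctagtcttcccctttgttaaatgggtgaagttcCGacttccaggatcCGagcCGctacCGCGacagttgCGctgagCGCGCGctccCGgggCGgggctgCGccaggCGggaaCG
Pnp: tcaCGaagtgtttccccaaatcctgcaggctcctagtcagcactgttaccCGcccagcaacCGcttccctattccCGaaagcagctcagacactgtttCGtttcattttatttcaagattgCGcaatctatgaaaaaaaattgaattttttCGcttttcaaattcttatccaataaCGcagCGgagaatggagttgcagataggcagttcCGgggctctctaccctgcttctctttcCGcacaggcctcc
The Haus4 sequence (chr14:54554362-54554611, minus strand) held 22 CG, and 14.8% of 32851 promoters held as many or more. The Pnp sequence (chr14:50944053-50944302, plus strand) held 11, and 35.6% of promoters held as many or more. The Mettl17 sequence, not shown, held 13, and 31.5% of promoters held as many or more. CG reads the same on both strands. The table matched 153 of the 324 member genes. These counts describe sequence alone.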

How the data were processed

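Per the file headers, the deposited scanner files give each spot's mean intensity and local background intensity in Cy3 and Cy5 (Feature Extraction 10.1.1.1), and the deposited log10 ratio of processed signals; the authors' value table is near log2 of Cy5 over Cy3 and served as an alternative, its centring and normalization not given in the sources used here. Its column medians were 0.00178, 0.00341, 0.00544, 0.00499, 0.00321, 0.00752, 0.00669, 0.00565, 0.00212 and 0.00685. Labelling started from 200 ng of RNA per sample, per the labels.

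Background was corrected by normexp (offset 50), with the 71 to 122 spots per array that were dimmer than their local background kept out of the fit. Those spots (23 of members, 1 of them tested) and 173 to 337 outlier spots per array were left out. Leaving them out of the values was adopted after values had been seen. Loess and Aquantile normalization and all fits used limma 3.58.1 in R 4.3.3 (with the package data.table, version 1.17.8); tables and plots were made with pandas 2.3.3, numpy 2.4.6 and matplotlib 3.10.9. The sample left out of the T1KO 99 arrays shared their normalization. Fits were two-sided, with Benjamini-Hochberg adjustment over 25865 probes at 0.05. DKO over WT was tested over 4 pairs; the other fits took their spread from the remaining pairs or lines, assuming that a single line or pair varies like those. Where labels do not show separate derivations, p-values measure only the spread between these lines. Fits were tested on simulated data. A fold bound compares the brighter group's mean with the lowest detected signal of the dim group's arrays, or with the dim probe's own where that is higher. Probe names came from the files, with 201 member probes renamed through RefSeq.

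The members and gene lists were chosen with earlier results of these data known. The named probes were those of Pnp2, Pnp and Haus4, ratios beyond 1 in DKO over WT, the 3 nearest genes on each side of Pnp2 and Haus4, the 8 of smallest p in T2KO over T1KO, the 5 of smallest p by sex, the 5 of widest WT range, genes whose probes differed by over 1, the 4 brightest of each segment list, purine and augmin genes past the threshold or with the 3 largest ratios, and the 10 probes most like Pnp2. Mettl17, Ndrg2, Ttc5, Tox4 and others named from small counts were added after their values were seen. The comparison of T1KO 65 with T1KO 99 and its limits of 0.5 and 1 were likewise chosen after seeing the data.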

Additional observations from a re-analysis of the deposited data

Results flagged for a closer look

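The levels of 50 named and tested probes were checked in the 4 WT and the 4 DKO lines, 100 groups in all, for a line set apart by a gap that passed Dixon's critical value. Chance gives this in about 1 of 20 groups, and 4 were found. Rem2 was 6.97 in WT 7 against 7.43 to 7.49 in the other WT lines. 4931414P19Rik was 7.12 in DKO 51 against 6.90 to 6.93 in the other DKO lines. The Sdr39u1 probe from 56516124 (mm9, chromosome 14) was 11.72 in WT 7 against 10.76 to 10.92 in the others. Cma2 was 7.79 in DKO 60 against 8.10 to 8.16.

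DKO over WT ratios had one sign in both male pairs and the other in both female pairs for 6 probes. The male minus female difference was 1.12 for Rec8, 1.01 and 0.80 for the Sdr39u1 probes, -0.79 and -0.67 for the Psme2 probes and -0.29 for Tm9sf1. None of these differences passed an adjusted p of 0.05 in limma.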

How the results depend on the processing

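Under the alternatives, 92 of the counts that answer a comparison stayed within 1.5 times of the reported count and 30 did not; of other values 284 held, 19 moved, 1 passed the threshold and 3 changed sign. T1KO 65 minus T1KO 99 for Ccnb1ip1 was -1.23 with normexp on all spots and -1.46 with spots below their background kept, against 0.49. Both alternatives keep the spot dimmer than its local background. It is also kept without background correction, where the difference was 0.53. Why the sign changed was not tested. For Gm10896, not above background in either line, it was 0.93 with normexp on all spots against -0.18. The cause was not tested for the changes below, save where fewer probes or pairs entered. The 10 members lower in DKO became 5 with normexp on all spots, 5 with the scanner software's ratio, 4 where every channel had to be above background, and 0 with sex as a covariate, with a trended variance prior and without any 1 pair (0 to 0). The 1 higher became 0 in those fits and with the authors' value table, except 3 with the scanner software's ratio. It became 2 without background correction, 3 with the pair as a random block and 36 under median centring (the all-probe median was then 0.19). The authors' value table held 138 of the 170 tested members, without Gm10896. Gm10896 and Pnp2 were also left out where every channel had to be above background. Ratios beyond 1 in either direction, 4 members, became 8 with the scanner software's ratio and 2 with the strict filter. Members with DKO lines apart became 35 lower and 22 higher with no filter, 35 higher with median centring and 4 higher with the strict filter. T2KO over T1KO called 1 member, Pnp2, with the random block. T1KO 65 exceeded T1KO 99 by over 0.5 for 1 member with the Cy3 channels alone. The DKO over WT ratio of Pnp2 lay between -5.39 and -3.38 over the 15 alternatives that kept its probe. That of Haus4 lay between -1.89 and -1.22 over 16 alternatives. T1KO 65 minus T1KO 99 of Haus4 lay between -0.89 and -0.83. No paired analysis was possible because the replicate numbers in the labels count repeat arrays of the same 2 lines, which were averaged, and pair no lines across groups; the pairing of DKO with WT lines by hybridisation is already in the ratios.

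Precision is limited by 1 line in T2KO, 2 in T1KO and 4 in WT and DKO, by the lack of a dye swap and by signals near the array floor, as for Pnp2 in the DKO lines and T1KO 65.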

Other observations

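The Cy5 sample on the T1KO 99 arrays has no genotype in the labels and entered no comparison. Its Pnp2 level was 11.08, its Haus4 level 15.06, its Acin1 level 13.27 on the brighter probe and its Pnp level 14.43, with ratios over T1KO 99 of 1.01, 0.81, 0.39 and 0.49. Its Ccnb1ip1 level was 8.25 and its Ndrg2 level 11.28, with ratios of -0.92 and -1.01.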
